A study of Mus musculus with 16 samples.

Results

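Hepatocytes take up the amino acids that reach the liver from the gut and from other tissues through solute carriers of their plasma membrane, each of which accepts a group of related amino acids. Uptake feeds gluconeogenesis and the urea cycle in the hepatocyte, and glucagon, acting through its receptor GCGR, is known as a hormone that promotes both. The genes examined here were 10 amino acid transporters of mouse liver, chosen by name from the solute carrier families (Slc38a2, Slc38a3, Slc38a4, Slc7a2, Slc7a5, Slc3a2, Slc43a1, Slc16a10, Slc6a9 and Slc25a47), out of 41079 genes in the table of counts. All 10 passed the filter on low counts, which kept 16742 genes in all. The list holds 9 genes of plasma membrane transport and Slc25a47, which encodes a carrier of the inner mitochondrial membrane and does not bring amino acids into the cell.

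RNA was sequenced from whole liver of 4 male CRE-, 4 male LKO, 4 female CRE- and 4 female LKO mice, all of them 20 to 22 months old and on the C57BL/6J background. Every group carried floxed Gcgr alleles. LKO mice also carried a Cre transgene driven by the albumin promoter, which is active in hepatocytes, and CRE- mice were controls without it. The question was whether transporter transcripts differ when the hepatocyte glucagon receptor is deleted, in each sex. Counts are given as CPM, the count of a gene relative to the TMM-scaled total of its library, and each library held between 33268424 and 56488920 counted reads.

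The deleted gene itself was measured over all of its exons, including those that the deletion leaves in place, so its count is a partial check of the genotype labels. Gcgr was at 190 CPM, 193 CPM, 127 CPM and 190 CPM in the male CRE- mice and at 117 CPM, 136 CPM, 130 CPM and 160 CPM in the male LKO mice. It was at 162 CPM, 208 CPM, 201 CPM and 180 CPM in the female CRE- mice and at 48.8 CPM, 132 CPM, 119 CPM and 93.6 CPM in the female LKO mice. The female groups did not overlap, whereas in males the control replicate 3 lay among the LKO mice, so the male count does not separate the genotypes by itself. The log2 fold change was -0.37 in males (SE 0.245, adjusted p = 0.671) and -0.93 in females (SE 0.247, adjusted p = 0.0443) in edgeR's quasi-likelihood F test, whose p-values were adjusted after Benjamini and Hochberg over all genes tested. The female call was lost in 18 of the 26 other settings. With each mouse left out, the female value was between -1.11 and -0.69, and its adjusted p was above 0.05, up to 0.136, except without male CRE- replicate 2 or 3 or female LKO replicate 2.

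On the principal components of log2 CPM over all genes tested, female LKO replicate 1 lay farthest from the other libraries on the leading component, which held 23.9% of the variance, at 114 against -57.5 to 75.4 elsewhere. Male CRE- replicate 3 lay farthest on the next component, which held 16.8%, at 89.6. Limma's sample quality weights were also lowest in these libraries, at 0.216 and 0.296. Transcripts of the labelled sex were present in each library, with at least 5136 reads of Xist in every female and at most 12 in any male, and at least 1685 reads of Ddx3y in every male and 0 in every female.

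Of the 10 transporters, Slc38a4 passed the threshold of 0.05 on the adjusted p in males, where it was lower, and the other 9 did not pass. Across all genes tested in males, 0.454% were called, 0.221% higher and 0.233% lower. In females, Slc38a4 was again the transporter called, also lower, against 4.24% of all genes, 2.09% higher and 2.15% lower. For the difference between the sexes, edgeR called 0 of the 10 transporters and 0% of all genes. At an unadjusted p under 0.05, 7 transporters differed in males (4 lower, 3 higher) against 9.53% of all genes, 4 in females (2 lower, 2 higher) against 21.4%, and 1, Slc7a2, for the sex difference against 16%. DESeq2 called 4 transporters in males against 1.72% of all genes, 2 in females against 10.2%, and 0 for the sex difference against 2.25%. The median log2 fold change of the 10 transporters was 0.026 in males and 0.38 in females, beside -0.0078 and 0.035 over all genes tested.

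The values of the male LKO mice lay wholly below those of the male controls for 3 transporters, Slc38a3, Slc38a4 and Slc43a1, and wholly above them for 3, Slc7a5, Slc3a2 and Slc6a9. Over all genes tested, 2.92% lay wholly below and 3.57% wholly above in males. In females the groups were separate for Slc38a4, which was lower, and Slc7a5, which was higher, against 6.42% and 5.2% of all genes. The transporters were chosen with such values known, so these counts describe the list and do not test it.

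**Figure D1:**
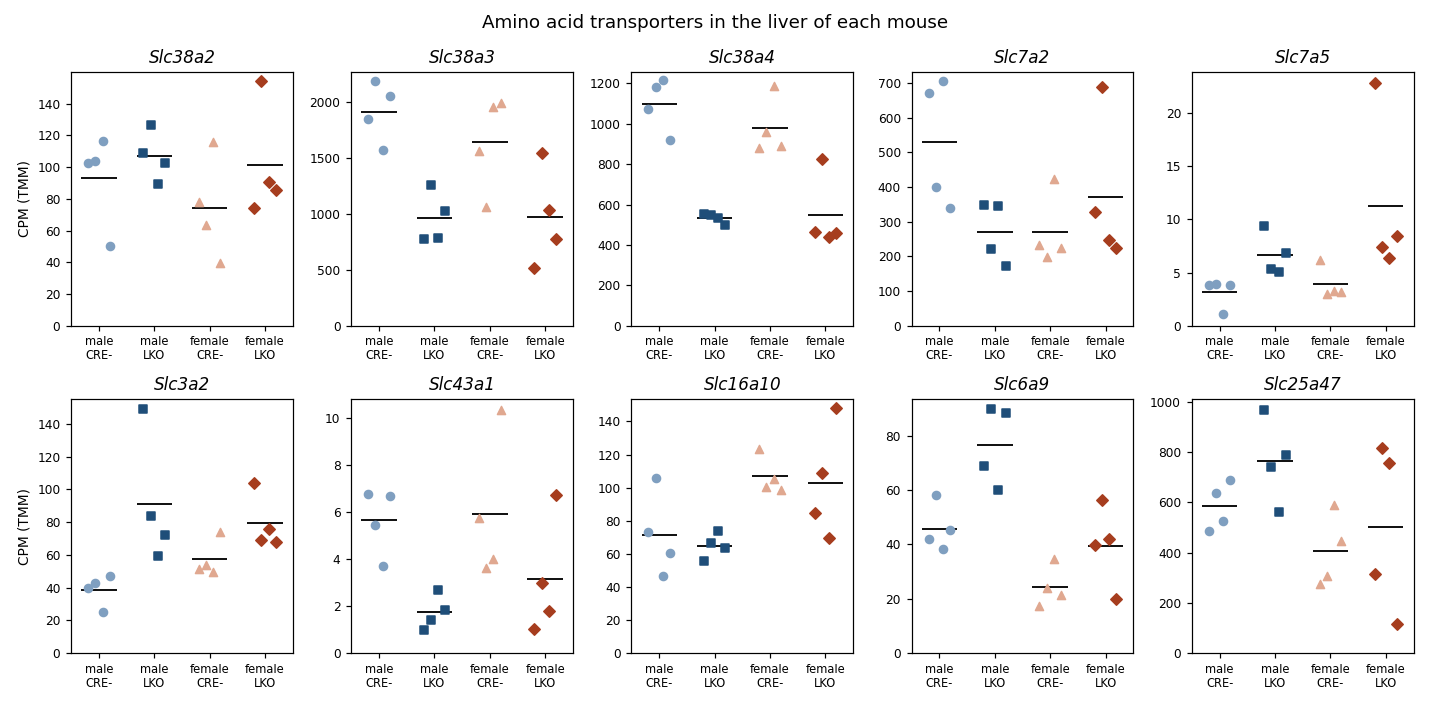
Level of each of the 10 transporters in CPM after TMM scaling (vertical axis, from 0), with a point for each of the 16 mice and a line at the mean of each group of 4. The LKO mice lie below all controls of their sex for Slc38a4, at 501 to 555 CPM in males and 439 to 828 CPM in females.

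The sodium-coupled transporters of the SLC38 family include the most abundant of these genes in control liver. Slc38a4 (SNAT4), which carries small neutral and cationic amino acids and is made largely in liver, lies at chr15:96892701-96953837 on the minus strand of GRCm39. It was at 1074 CPM, 1183 CPM, 1218 CPM and 919 CPM in male CRE- mice, and at 555 CPM, 548 CPM, 536 CPM and 501 CPM in male LKO mice. All male LKO values lay in a narrow band at 48.7% of the control mean. In females it was at 880 CPM, 962 CPM, 1188 CPM and 889 CPM in controls and at 465 CPM, 828 CPM, 439 CPM and 457 CPM in LKO mice, 55.9% of the control mean. Female LKO replicate 2 lay close to the lowest control and the other 3 were well below it. The log2 fold change was -1.04 in males (SE 0.21, adjusted p = 0.0414) and -0.84 in females (SE 0.209, adjusted p = 0.0367) by edgeR's adjusted test, lower in 4 of 4 LKO mice in each sex. The sexes differed by 0.20 in log2 (SE 0.294, adjusted p = 0.762 by the same edgeR test). Whole liver was sequenced, and the median over the 9 hepatocyte markers described below was -0.0017 in log2 in males and -0.47 in females, within a range of -1.17 (Tat) to 0.48 (Cyp2e1) in males and -0.89 (Ttr) to 0.34 (Trf) in females. Tat is also listed with the amino acid breakdown enzymes, and the next lowest marker in males was Trf at -0.66.

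The size of the Slc38a4 difference moved little with the processing and its call moved more. The male log2 fold change was between -1.11 and -0.99 in the 26 other settings tried, and 12 of these kept the call. A block for mice of the same replicate number within each sex lost it, at -1.03 (adjusted p = 0.0592 by edgeR's test), and kept the female call. With each mouse left out in turn, the male adjusted p from edgeR was between 0.00764 and 0.114, and it was above 0.05 when any male mouse was left out and when female CRE- replicate 1, 2 or 3 was. The female log2 fold change was between -1.11 and -0.74 in the same settings, 12 of which again kept the call. The female adjusted p was between 0.00701 and 0.115 with each mouse left out, and above 0.05 when male LKO replicate 2, 3 or 4, any female CRE- mouse, or female LKO replicate 1, 3 or 4 was left out.

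Slc38a3 (SNAT3), a glutamine, asparagine and histidine transporter that exchanges protons for sodium and amino acid, lies at chr9:107528353-107546167 on the minus strand. Its level was 1848 CPM, 2187 CPM, 1570 CPM and 2052 CPM in male CRE- mice and 774 CPM, 1259 CPM, 782 CPM and 1028 CPM in male LKO mice. Female levels were 1561 CPM, 1061 CPM, 1957 CPM and 1994 CPM in controls and 519 CPM, 1542 CPM, 1038 CPM and 779 CPM in LKO mice. The male groups were separate, and in females LKO replicate 2 lay within the control range. The log2 fold change of -0.99 in males (SE 0.298, adjusted p = 0.209) and of -0.76 in females (SE 0.297, adjusted p = 0.145) did not pass edgeR's test after adjustment. DESeq2 called it in males (adjusted p = 0.0458), and edgeR called it in females when LKO replicate 2 was left out (log2 fold change -1.08, adjusted p = 0.0345). By limma-voom with sample quality weights the female value was -0.47.

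Slc38a2 (SNAT2), the system A transporter of small neutral amino acids that cells raise when amino acids are scarce, lies at chr15:96585267-96597609, 295 kb from Slc38a4 on the same strand with 2 genes between them. It ranged from 50.5 to 116 CPM in male CRE- mice and from 89.5 to 126 CPM in male LKO mice. In females it ranged from 39.4 to 116 CPM in controls and from 74.4 to 154 CPM in LKO mice. The groups overlapped in both sexes, with log2 fold changes of 0.19 in males (SE 0.313, adjusted p = 0.872) and 0.45 in females (SE 0.314, adjusted p = 0.446) from edgeR's test. Without male CRE- replicate 4, the lowest male, the male value was -0.010. The female value was 0.75 without CRE- replicate 3, 0.26 without CRE- replicate 4 and 0.17 without LKO replicate 2.

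Slc7a2 (CAT2) carries arginine, lysine and ornithine, and lies at chr8:41315404-41375107 on the plus strand. It was at 672 CPM, 400 CPM, 705 CPM and 340 CPM in male CRE- mice and at 347 CPM, 223 CPM, 345 CPM and 171 CPM in male LKO mice. Female mice had 232 CPM, 200 CPM, 423 CPM and 225 CPM as controls and 328 CPM, 687 CPM, 246 CPM and 226 CPM as LKO mice. Male control replicates 1 and 3 were high and replicate 4 was within the LKO range, and female LKO replicate 2 stood above the other females. Its log2 fold change was -0.96 in males (SE 0.376, adjusted p = 0.396) and 0.46 in females (SE 0.373, adjusted p = 0.521) by edgeR's test. Slc7a2 had the smallest p of the transporters for the sex difference, 1.43 in log2 (SE 0.529, adjusted p = 0.24 by edgeR, 0.11 by DESeq2), which did not pass the threshold. Without female LKO replicate 2 the female value was -0.017 and the sex difference was 0.94, and without female CRE- replicate 3 the female value was 0.76.

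Slc7a5 and Slc3a2 encode the chains of a single exchanger of large neutral amino acids. Slc7a5 (LAT1), the chain that carries leucine, phenylalanine and tryptophan, lies at chr8:122607885-122634425 on the minus strand and is low in adult hepatocytes. It was at 3.83 CPM, 3.92 CPM, 1.14 CPM and 3.82 CPM in male CRE- mice and at 9.39 CPM, 5.35 CPM, 5.04 CPM and 6.83 CPM in male LKO mice. Among females it was at 6.19 CPM, 2.96 CPM, 3.28 CPM and 3.15 CPM in controls and at 22.8 CPM, 7.43 CPM, 6.33 CPM and 8.45 CPM in LKO mice. Every LKO mouse was above every control of its sex, by a narrow margin in females, where control replicate 1 came close to LKO replicate 3. Log2 fold changes were 1.06 in males (SE 0.437, adjusted p = 0.434) and 1.53 in females (SE 0.44, adjusted p = 0.0581) by edgeR's test, short of the threshold in both. In females it was called in 5 of the 26 other settings, among them DESeq2 (adjusted p = 0.00909), and without LKO replicate 1 the female log2 fold change was 0.94.

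Slc3a2 (the CD98 heavy chain), which brings Slc7a5 and related light chains to the cell surface, lies at chr19:8684931-8700733 on the minus strand. It was at 39.5 CPM, 43.0 CPM, 25.1 CPM and 47.1 CPM in male CRE- mice and at 149 CPM, 83.8 CPM, 59.2 CPM and 72.1 CPM in male LKO mice. Female values were 51.3 CPM, 53.8 CPM, 49.6 CPM and 74.1 CPM in controls and 104 CPM, 69.0 CPM, 75.8 CPM and 67.9 CPM in LKO mice. The male groups were separate, with LKO replicate 1 the highest, and in females control replicate 4 lay within the LKO range. The log2 fold change was 1.23 in males (SE 0.271, adjusted p = 0.0573) and 0.47 in females (SE 0.268, adjusted p = 0.335) by edgeR's test. In males Slc3a2 was called in 5 of the 26 other settings, among them DESeq2 (adjusted p = 0.00266). The sexes differed by -0.76 in log2 (SE 0.379, adjusted p = 0.33 by edgeR's test), and by -0.40 without male LKO replicate 1.

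After the group means were removed from log2 CPM, Slc7a5 and Slc3a2 varied together over the 16 mice, with Pearson's r of 0.648 (two-sided permutation test within groups, p = 0.0133, adjusted p = 0.0399 over 3 relations) and Spearman's rho of 0.571 (permutation p = 0.0363, adjusted p = 0.109). Without female LKO replicate 1 and male CRE- replicate 3, the mice farthest from the median of Slc7a5, r was 0.468 (permutation p = 0.206). With a single mouse left out, the adjusted p of r was above 0.05 without any of the male CRE- mice, male LKO replicate 1 or 3, or female LKO replicate 1 or 2, where r was at least 0.504. Slc7a5 and Slc38a2 gave r of -0.253 (permutation p = 0.428, adjusted p = 0.428) and rho of -0.171 (permutation p = 0.573, adjusted p = 0.573), and r of -0.0204 without the same mice. Slc38a3 and Slc38a4 gave r of 0.465 (permutation p = 0.297, adjusted p = 0.428) and rho of 0.191 (permutation p = 0.551, adjusted p = 0.573), and r of -0.0247 without female LKO replicates 1 and 2.

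Slc43a1 and Slc16a10 encode facilitative carriers. Slc43a1 (LAT3), which carries branched-chain amino acids and phenylalanine, lies at chr2:84669196-84693930 on the plus strand. It was at 6.76 CPM, 5.46 CPM, 3.69 CPM and 6.68 CPM in male CRE- mice and at 0.978 CPM, 1.42 CPM, 2.68 CPM and 1.84 CPM in male LKO mice. Among females it was at 5.74 CPM, 3.62 CPM, 4.0 CPM and 10.3 CPM in controls and at 1.01 CPM, 2.99 CPM, 1.79 CPM and 6.71 CPM in LKO mice. The male groups were separate and 3 of the female LKO mice were below all female controls, while LKO replicate 4 was above 3 of them. Its male log2 fold change of -1.71 (SE 0.503, adjusted p = 0.193) and its female one of -0.92 (SE 0.491, adjusted p = 0.294) did not pass edgeR's test after adjustment. In males Slc43a1 was called in 2 of the 26 other settings, among them DESeq2 (adjusted p = 0.0334). The female value was -0.49 without CRE- replicate 4 and -1.61 without LKO replicate 4.

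Slc16a10 (TAT1), which carries the aromatic amino acids, lies at chr10:39909528-40018262 on the minus strand. It ranged from 46.5 to 106 CPM in male controls and from 55.6 to 73.7 CPM in male LKO mice. In females it ranged from 98.5 to 124 CPM in controls and from 69.5 to 148 CPM in LKO mice. The groups overlapped in both sexes, and the log2 fold changes were -0.14 in males (SE 0.246, adjusted p = 0.883) and -0.056 in females (SE 0.246, adjusted p = 0.927) by edgeR's test. The sign turned when male CRE- replicate 2 was left out in males (0.11), and in females without CRE- replicate 1 (0.019), LKO replicate 1 (0.043) or LKO replicate 3 (0.094).

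Slc6a9 (GlyT1), which takes up glycine with sodium and chloride, lies at chr4:117692240-117726502 on the plus strand. It was at 41.8 CPM, 58.0 CPM, 38.1 CPM and 45.3 CPM in male CRE- mice and at 68.8 CPM, 89.8 CPM, 60.0 CPM and 88.1 CPM in male LKO mice. In females it was at 17.3 CPM, 24.0 CPM, 34.8 CPM and 21.3 CPM in controls and at 39.6 CPM, 56.2 CPM, 41.8 CPM and 19.8 CPM in LKO mice. The male groups were separate, and in females LKO replicate 4 was below 3 of the controls while the other 3 LKO mice were above all of them. Log2 fold changes were 0.74 in males (SE 0.273, adjusted p = 0.354) and 0.69 in females (SE 0.274, adjusted p = 0.151) by edgeR's test. Without female LKO replicate 4 the female value was 0.92 (adjusted p = 0.0487 by the same test).

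Slc25a47, the liver-enriched mitochondrial carrier, lies at chr12:108815740-108822741 on the plus strand. It ranged from 486 to 690 CPM in male CRE- mice and from 560 to 968 CPM in male LKO mice. In females it ranged from 274 to 591 CPM in controls and from 116 to 817 CPM in LKO mice, so that the LKO group held both the lowest and the highest female value. Its log2 fold changes were 0.38 in males (SE 0.43, adjusted p = 0.813) and 0.31 in females (SE 0.43, adjusted p = 0.738) by edgeR's test. Without female LKO replicate 2 the female value was -0.035, and with the other mice left out in turn it reached 0.65. The male value was 0.23 without LKO replicate 1.

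**Figure D2:**
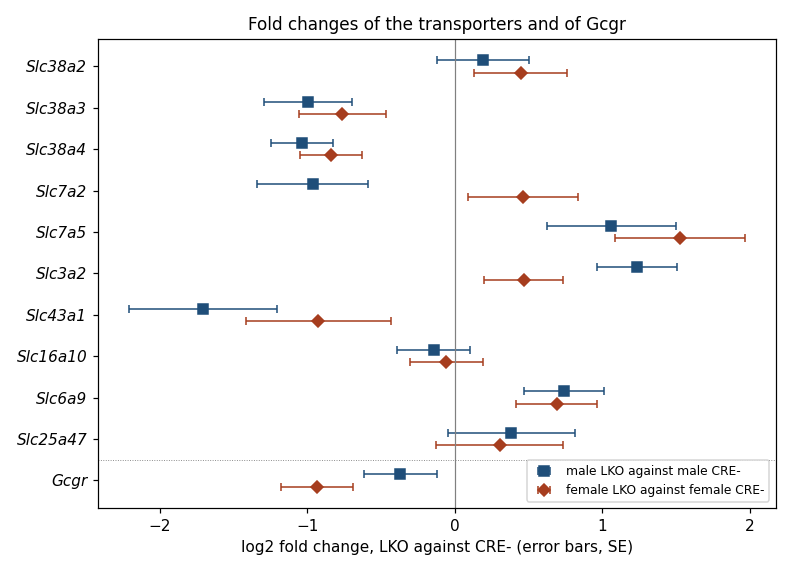
Log2 fold change of LKO against CRE- mice of the same sex (horizontal axis) with its SE (bars) for the 10 transporters and for Gcgr, in males (squares) and females (diamonds), from edgeR's fit of 16 libraries. Slc38a3, Slc38a4 and Slc43a1 lie below 0 and Slc7a5, Slc3a2 and Slc6a9 above 0 in both sexes, and of the transporters Slc38a4 alone passed the adjusted threshold, at -1.04 and -0.84.

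Levels of different genes were compared as CPM per kb of exon. In male CRE- mice the order of mean levels was Slc38a3 at 569 CPM per kb, Slc25a47 at 342, Slc38a4 at 250, Slc7a2 at 58.4, Slc38a2 at 20.0, Slc6a9 at 11.2, Slc16a10 at 10.8, Slc3a2 at 4.15, Slc43a1 at 1.46 and Slc7a5 at 0.905 CPM per kb. In that order the mice overlapped between Slc38a2 and Slc6a9, between Slc6a9 and Slc16a10, and between Slc43a1 and Slc7a5. In female CRE- mice the leading genes were again Slc38a3 at 488 CPM per kb, Slc25a47 at 237 and Slc38a4 at 223, whose neighbours overlapped, and the lowest were Slc43a1 at 1.53 and Slc7a5 at 1.11 CPM per kb, which also overlapped. In male LKO mice Slc25a47 led at 446 CPM per kb, ahead of Slc38a3 at 285 with overlapping mice, and Slc7a5 at 1.89 lay above Slc43a1 at 0.446 CPM per kb without overlap. In female LKO mice Slc25a47 at 293 and Slc38a3 at 288 CPM per kb overlapped, and Slc7a5 at 3.20 was above Slc43a1 at 0.806 CPM per kb. The exon lengths are those of all annotated exons of a gene together, which understates the level of a gene whose liver transcript is short.

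Between the control groups of the sexes, Slc3a2 was higher in all female than in all male CRE- mice, 49.6 to 74.1 CPM against 25.1 to 47.1 CPM, and Slc6a9 was lower in all female CRE- mice, 17.3 to 34.8 CPM against 38.1 to 58.0 CPM. Such a separation in controls held for 4.37% of all genes tested in the higher direction and for 3.17% in the lower. The other 8 transporters overlapped between the control groups.

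Of 30 other plasma membrane amino acid transporters, 20 were tested, and 0 were called in males by edgeR, with 5 at an unadjusted p under 0.05 and 2 by DESeq2. In females 1 was called higher and 1 lower, with 10 at an unadjusted p under 0.05 and 7 by DESeq2, and 0 to 5 were called with each mouse left out. Over all genes tested, edgeR called 0.454% in males and 4.24% in females, and DESeq2 1.72% and 10.2%. Shares at an unadjusted p under 0.05 were 9.53% and 21.4%. The median log2 fold change of this list was -0.13 in males and 0.88 in females. Its summed level overlapped in females, at 744 to 854.5 CPM in controls and 626 to 1009 CPM in LKO mice. In some of its genes 1 female LKO mouse stood far above the others. Replicate 1 was at 154 CPM for Slc7a8 and 185.5 CPM for Slc43a2, against at most 33.6 and 30.4 CPM in the other female LKO mice. Replicate 4 was at 66.5 CPM for Slc1a4, against at most 8.52 CPM. Slc7a1 (CAT1), the widely expressed cationic transporter, was at 2.93 CPM, 1.62 CPM, 1.29 CPM and 1.71 CPM in female CRE- mice and at 13.5 CPM, 2.89 CPM, 6.38 CPM and 3.53 CPM in female LKO mice, where LKO replicate 2 was level with control replicate 1. Its female log2 fold change was 1.80 (SE 0.447, adjusted p = 0.0362 by edgeR's test) and its male one was 0.87 (adjusted p = 0.56). Slc6a12, a betaine and GABA transporter, was at 97.3 to 124 CPM in female controls and at 38.1 to 74.0 CPM in female LKO mice, without overlap (log2 fold change -0.95, SE 0.19, adjusted p = 0.0176 by edgeR's test), and its male log2 fold change was -0.12 (adjusted p = 0.865). The most abundant gene of the list per kb was Slc6a13, a GABA and taurine transporter, at 86.3 CPM per kb. Slc6a13 was at 201 to 231 CPM in male controls and 271 to 346 CPM in male LKO mice (log2 fold change 0.53, SE 0.157, adjusted p = 0.207 by edgeR's test). In females its groups overlapped, at 222 to 276 CPM in controls and 202 to 288 CPM in LKO mice (log2 fold change -0.14, adjusted p = 0.66 by edgeR's test). Slc6a18 had 0 reads in every library.

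Carriers inside the cell were counted separately. Of 6 lysosomal amino acid transporters 5 were tested and 0 were called in either sex by edgeR, 0 at an unadjusted p under 0.05 and 0 by DESeq2, with Slc38a7 the most abundant at 8.94 CPM per kb. Of 11 mitochondrial amino acid carriers 10 were tested, and 0 were called in males, with 2 at an unadjusted p under 0.05 and 0 by DESeq2. In females 2 were called lower, with 4 at an unadjusted p under 0.05 and 3 by DESeq2, and 0 to 3 were called with each mouse left out. The shares over all genes were 0.454%, 9.53% and 1.72% in males and 4.24%, 21.4% and 10.2% in females, in the same order. Sfxn1, a mitochondrial serine carrier, was at 106 to 142 CPM in female controls and 39.7 to 86.0 CPM in female LKO mice (log2 fold change -0.95, SE 0.208, adjusted p = 0.0232 by edgeR's test), with a male log2 fold change of -0.48 (adjusted p = 0.46). Slc25a44, a mitochondrial branched-chain amino acid carrier, was at 84.3 to 124 CPM in female controls and 41.4 to 68.9 CPM in female LKO mice (log2 fold change -0.88, SE 0.229, adjusted p = 0.0428 by the same test), and its male value was -0.18 (adjusted p = 0.838). The most abundant of this list, Slc25a15, the ornithine carrier of the urea cycle, was at 54.2 CPM per kb and had log2 fold changes of -0.63 in males (adjusted p = 0.333) and -0.80 in females (adjusted p = 0.0512) by edgeR's test. The median log2 fold changes were -0.19 in males and -0.062 in females for the lysosomal list and -0.057 and -0.31 for the mitochondrial list.

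Of 14 amino acid response genes, which cells raise through ATF4 when amino acids are short or protein synthesis is stressed, 5 were called higher in males and 5 in females by edgeR, and 0 lower, with median log2 fold changes of 1.26 and 1.16. At an unadjusted p under 0.05 there were 11 in males and 8 in females, and by DESeq2 7 and 6. Over all genes edgeR called 0.454% in males and 4.24% in females. The unadjusted shares over all genes were 9.53% and 21.4%, and those by DESeq2 1.72% and 10.2%. The genes of smallest p in males were Phgdh (4.32), Asns (6.32), Psat1 (5.07), Atf5 (1.05) and Trib3 (2.03), the values being log2 fold changes. In females they were Asns (4.50), Psat1 (3.64), Phgdh (2.15), Sesn2 (1.15) and Trib3 (1.60). Asns, which makes asparagine, was at most 0.854 CPM in male controls and at least 26.4 CPM in male LKO mice, and at most 1.91 CPM in female controls and at least 7.58 CPM in female LKO mice. Sesn2 was at 0.91 in log2 in males (adjusted p = 0.224 by edgeR's test). Atf5, the most abundant of the list at 273 CPM per kb, was at 487 to 639 CPM in female controls and 378 to 648 CPM in female LKO mice, and its female log2 fold change was -0.16 (adjusted p = 0.694 by edgeR's test). Slc7a5, Slc3a2 and Slc38a2, known as genes of the same response, are described above and were not counted in this list.

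Of 20 amino acid breakdown and urea cycle enzymes, 0 were called in males by edgeR (7 at an unadjusted p under 0.05, 1 by DESeq2) and 2 were called lower in females (13 at an unadjusted p under 0.05, 4 by DESeq2), with median log2 fold changes of -0.63 and -0.77. In females these were Agxt (log2 fold change -1.32, adjusted p = 0.042) and Otc (-1.27, adjusted p = 0.0448) by edgeR's test. The number called in females was 0 to 8 with each mouse left out. Over all genes, edgeR called 0.454% in males and 4.24% in females, with 9.53% and 21.4% at an unadjusted p under 0.05. DESeq2 called 1.72% and 10.2% of all genes. The next in females were Hal at -1.27, Gpt at -0.80 and Hpd at -1.01, with adjusted p between 0.0614 and 0.104 from edgeR. The male values were -0.094 for Otc, -0.58 for Hal, -0.21 for Gpt and -0.23 for Hpd. In males the genes of smallest p were Sds at -1.87, Gls2 at -1.38, Agxt at -0.94, Sdsl at -0.67 and Tat at -1.17, with adjusted p between 0.109 and 0.4 from edgeR. The female values were -0.61 for Sds, -1.15 for Gls2, -0.57 for Sdsl and -0.79 for Tat. The most abundant gene of the list was Ass1 at 1357 CPM per kb.

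Markers of the cells in whole liver were read beside these results. For all marker lists, the shares over all genes were 0.454% in males and 4.24% in females by edgeR, and 1.72% and 10.2% by DESeq2. At an unadjusted p under 0.05 they were 9.53% and 21.4%. Hepatocyte markers were 9 of 9 tested and 0 called in either sex by edgeR, with 2 in males and 1 in females at an unadjusted p under 0.05 and 0 in males and 1 in females by DESeq2. Their summed level was 87250, 118200, 136000 and 115800 CPM in male CRE- mice, 80160, 94060, 108200 and 93790 CPM in male LKO mice, 140000, 133900, 140400 and 163700 CPM in female CRE- mice, and 81600, 117100, 108000 and 120900 CPM in female LKO mice. The female LKO sums were below all female control sums. Alb, the most abundant at 34300 CPM per kb, weighs most in them, at 90170 to 105500 CPM in female controls and 41690 to 71960 CPM in female LKO mice. In males the log2 fold changes of the 9 markers were -0.33 for Alb, 0.14 for Ttr, -0.0017 for Apoa1, -0.36 for Apob, 0.028 for Serpina1a, 0.061 for Hnf4a, -1.17 for Tat, 0.48 for Cyp2e1 and -0.66 for Trf, whose groups did not overlap. In females they were -0.69 for Alb, whose groups did not overlap, -0.89 for Ttr, -0.27 for Apoa1, -0.10 for Apob, -0.47 for Serpina1a, -0.17 for Hnf4a, -0.79 for Tat, -0.55 for Cyp2e1 and 0.34 for Trf. Tat is in this list and in that of breakdown enzymes.

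In females edgeR called 5 of 6 proliferation markers, 2 of 7 tested neutrophil markers and 1 of 8 macrophage markers higher in LKO mice, with 6, 7 and 8 at an unadjusted p under 0.05. DESeq2 called 6 proliferation, 8 neutrophil and 6 macrophage markers in females. In males edgeR called 0 of these, with 6 neutrophil markers at an unadjusted p under 0.05 and 2 called by DESeq2, and the median log2 fold change of the neutrophil list was -2.23 in males and 3.17 in females. Proliferation markers can come from any dividing cell, hepatocytes included. Proliferation markers summed to 82.6, 20.7, 33.8 and 36.3 CPM in female LKO mice and to between 5.75 and 18.1 CPM in female controls, with Top2a the most abundant per kb. Macrophage markers summed to 3923, 1159, 2472 and 1523 CPM in female LKO mice and to 870, 636, 707 and 1200 CPM in female controls, with Lyz2 the most abundant per kb, and LKO replicate 2 lay below control replicate 4. Neutrophil markers summed to 125, 45.2, 71.3 and 616 CPM in female LKO mice and to between 16.9 and 38.1 CPM in female controls. S100a9 was the most abundant per kb, and Ly6g did not pass edgeR's filter and is not in the sums. In males these sums were 14, 9.0, 24.9 and 10.8 CPM in controls and 15.9, 10.7, 16.9 and 8.51 CPM in LKO mice for proliferation, 1072, 525, 294 and 1563 CPM and 1345, 730, 808 and 707 CPM for macrophages, and 91.7, 21.1, 17.2 and 183 CPM and 27.4, 16.9, 13.1 and 12.6 CPM for neutrophils. Female LKO replicate 1, which had the highest Slc7a5, also had the highest macrophage and proliferation sums and the lowest Slc38a3, and replicate 2, nearest to controls in Slc38a4 and Slc38a3, had the lowest of the 4 LKO sums of macrophage, neutrophil and proliferation markers. None of these marker genes was at 0 in all libraries, and their part in the transporter differences was not tested.

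Endothelial markers had 1 of 7 called higher in females by edgeR (3 at an unadjusted p under 0.05, 2 by DESeq2), and 0 of 7 in males by each of these counts. Markers of T and NK cells (8 tested), B and plasma cells (7), stellate cells and fibroblasts (8) and cholangiocytes (6) had 0 called in either sex by edgeR and by DESeq2, with at most 1 of a list at an unadjusted p under 0.05. Of 6 erythroid markers edgeR called 0 in either sex and DESeq2 called 1 in each. Erythroid markers summed to 196 to 492 CPM in male LKO mice and 561 to 1041 CPM in male controls, and 5 of 6 had an unadjusted p under 0.05 in males. Of 6 pancreatic acinar markers, Cela1 passed the filter and was called in neither sex. Cela1 was at 115 CPM in female CRE- replicate 2 and at most 32.1 CPM in the other libraries. The other 5 markers did not pass the filter and are not part of these values. Their highest counts in a library were 7767 for Ctrb1, 5322 for Pnlip, 4322 for Cpa1 and 4082 for Prss2, beside 5913 for Cela1. Amy2a5 had 0 reads in all libraries.

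For each transporter, the 3 genes outside the list whose log2 CPM followed it most closely over the 16 libraries were found by Pearson's r, which reflects group differences as well as differences among mice. Slc38a4 was followed by Dpyd (r = 0.939), Elovl2 (0.922) and Slc25a48 (0.92), and Slc38a3 by Upp2 (0.939), Oaf (0.893) and 1810008I18Rik (0.89). Slc38a2 was followed by Mosmo (0.897), Brpf3 (0.878) and Fubp3 (0.86), and Slc7a2 by Ercc5 (0.84), Ppargc1a (0.837) and Pck1 (0.835). For Slc7a5 the genes were A530064D06Rik (0.921), Nfkbia (0.882) and Klhdc1 (0.877), and for Slc3a2 Rack1 (0.879), Hmox2 (0.862) and Slc48a1 (0.858). Slc43a1 was followed by Lncbate1 (0.923), Chrna4 (0.901) and Lrtm1 (0.886), and Slc16a10 by Gm42225 (0.868), Ppa1 (0.847) and H2ac19 (0.832). Slc6a9 was followed by Sox12 (0.93), Rpp40 (0.905) and Proca1 (0.898), and Slc25a47 by Klf10 (0.91), Rgs16 (0.89) and Slc2a5 (0.89).

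Promoters of 7 of the 10 transporters, 11 in all, were in the RefSeq table of GRCm38.p6, with 250 bases before and 50 after each start. Slc38a3, Slc7a2 and Slc7a5 had no entry. They were searched on both strands for the cyclic AMP response element TGACGTCA, for its half-site TGACG, which is also part of that element, and for the C/EBP-ATF composite TGATGNAA of amino acid response genes. No promoter of the transporters held the full element, which 1.79% of 32851 promoters hold, or the composite, which 3.97% hold. The half-site was in 3 of the 11, of Slc38a2, Slc38a4 and Slc6a9, beside 20.8% of all promoters. The promoters of Slc38a4, which was called lower, and Slc38a2, which was not called, are shown because both hold it and both genes are on chr15, in capitals, starting at -27 from the start in Slc38a2 and at -110 in Slc38a4, where it is in the promoter of 1 of 3 starts. Their places in GRCm39, found by exact match, are chr15:96597560-96597859 and chr15:96929045-96929344, both on the minus strand. A match describes the letters of the window and does not show that a factor binds there. The lack of a match says nothing about sequence outside the window, or about Slc7a5, which was not searched.
Slc38a2: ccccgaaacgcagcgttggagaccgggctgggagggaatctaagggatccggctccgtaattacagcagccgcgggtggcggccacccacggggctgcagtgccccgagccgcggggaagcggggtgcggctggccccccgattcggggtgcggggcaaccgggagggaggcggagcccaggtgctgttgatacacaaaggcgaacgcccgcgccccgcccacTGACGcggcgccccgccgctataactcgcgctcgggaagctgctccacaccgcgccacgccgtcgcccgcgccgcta
Slc38a4: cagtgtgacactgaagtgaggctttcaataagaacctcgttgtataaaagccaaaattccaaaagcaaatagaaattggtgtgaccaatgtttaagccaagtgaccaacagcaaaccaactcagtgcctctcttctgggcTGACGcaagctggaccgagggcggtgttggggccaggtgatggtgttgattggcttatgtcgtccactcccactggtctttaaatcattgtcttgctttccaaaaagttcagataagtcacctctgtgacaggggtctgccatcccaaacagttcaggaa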

How the data were processed

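Messenger RNA was selected with poly-T beads from total RNA of whole liver and sequenced as paired reads. The submitters' processing notes name STAR 2.7.1a for alignment to GRCm39 and featureCounts of Subread 2.0.6. The authors deposited raw counts for every gene in each library, beside the gene's position and its exon length. Reads were counted with regard to strand, each read of a pair by itself, and reads mapping to several places were not counted, so a fragment can be counted by both of its reads and genes with close copies can be understated.

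Genes were filtered with filterByExpr (minimum count 10), scaled by TMM, and fitted as 4 groups of 4 mice with the quasi-likelihood test of edgeR 4.0.16 in R 4.3.3. P-values were adjusted by Benjamini-Hochberg over all 16742 genes tested, with a threshold of 0.05. They measure the spread between mice, since the replicates are labelled as biological. Log2 CPM used a prior count of 2, and correlations used 100000 permutations of mice within groups. Replicates of a group differed by more than sampling noise in all 24 pairs.

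Alternatives were DESeq2 1.42.0, each sex alone, RLE and upper-quartile scaling, other filters, a replicate block, limma-voom (limma 3.58.1) with sample quality weights, a threshold of 0.01, and each mouse left out. Leaving out male CRE- replicate 3 and female LKO replicate 1 together was chosen after seeing the data. The transporters and the gene lists were chosen with earlier results of these data known. Named genes are all 10 transporters, Gcgr, the genes called in either sex and the most abundant gene of the other transporter lists, the 5 of smallest p per sex of the amino acid response and breakdown lists, and the 3 genes most correlated with each transporter. Named beside this rule, after seeing the data, are all 9 hepatocyte markers and, of the other lists, the most abundant gene, genes at 0 reads, and Ly6g and the acinar markers for the filter. Slc7a8, Slc43a2 and Slc1a4 were also named after seeing the data, for single outlying mice.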

Additional observations from a re-analysis of the deposited data

Results flagged for a closer look

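In 7 groups of 4 mice, 1 mouse lay far from the other 3 for a transporter or for Gcgr. Slc38a4 was at 828 CPM in female LKO replicate 2, the highest of its group. Slc7a2 was at 423 CPM in female CRE- replicate 3, above the other controls. Slc7a5 was at 1.14 CPM in male CRE- replicate 3, below its group, and at 6.19 CPM in female CRE- replicate 1 and 22.8 CPM in female LKO replicate 1, above theirs. Slc3a2 was at 74.1 CPM in female CRE- replicate 4, above its group. Gcgr was at 127 CPM in male CRE- replicate 3, the lowest of its group. Chance flags about 1 in 20 groups, and 44 were examined, 4 for each of 11 genes. No transporter passed edgeR's test of the sex difference after adjustment (0 called, 1 at an unadjusted p under 0.05, 0 by DESeq2).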

How the results depend on the processing

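The log2 fold changes of Slc38a3, Slc38a4, Slc7a5, Slc3a2, Slc43a1 and Slc6a9 kept their direction in both sexes in every setting tried. With 1 transporter called in each sex, a single gene near the threshold moves the count. In males the count was 4 by DESeq2 (Slc38a3, Slc38a4 and Slc43a1 lower, Slc3a2 higher), 3 by limma-voom with sample quality weights, 2 with no filter, 0 at an adjusted p under 0.01, 0 without male CRE- replicate 3 and female LKO replicate 1 together, and 0 to 2 with each mouse left out. In females it was 2 by DESeq2 and by limma-voom (Slc38a4 lower, Slc7a5 higher), 0 with each sex alone, 0 with no filter, 0 at 0.01, 0 without both those mice, and 0 to 3 with each mouse left out. The count for the sex difference was 0 in every setting.

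The labels name nothing that mice of the same replicate number share. Deviations of same-numbered mice from their group means correlated between -0.013 and 0.173 in the 8 pairs, over 0.1 in 6 of them, and 5 LKO mice correlated best with their own number, which is a hint of pairing from the data and not from the design. The numbers in the library names differ within the pairs of male replicate 4 and female replicates 3 and 4. These pairs correlated at -0.013, 0.117 and 0.0281, and no label says what a library number marks. With the replicate block, 0 transporters were called in males (Slc38a4 at an adjusted p of 0.0592) and 2 in females (Slc38a4 lower and Slc7a5 higher), and 2 of all genes for the sex difference.

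Over all genes, 76 were called in males, against 336 by DESeq2, 148 by limma-voom and 22 at 0.01, and 26 to 111 with each mouse left out. In females 710 were called, against 1795 by DESeq2, 1976 by limma-voom, 119 with each sex alone, 361 without both those mice and 51 at 0.01, and 87 to 1310 with each mouse left out. For the sex difference 0 were called, against 372 by DESeq2, 12 with no filter and 29 by limma-voom, and 0 to 14 with each mouse left out. Over all settings, the calls in males and females were 0 to 2 and 0 to 7 of the other plasma membrane transporters (0 and 2 in the report), 0 and 0 to 3 of the mitochondrial carriers (0 and 2), 3 to 7 and 2 to 8 of the response genes (5 and 5), and 0 to 1 and 0 to 10 of the breakdown enzymes (0 and 2). RLE and upper-quartile scaling moved the median of all genes by at most 0.0355 in log2. The cause of these shifts was not tested.

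The correlation of Slc7a5 with Slc3a2 was 0.79 when group means were not removed (adjusted permutation p = 0.00112), so that group differences entered it, and 0.648 with a prior count of 0.5 (0.0383). It was 0.504 to 0.744 with each mouse left out, with an adjusted permutation p above 0.05 in 8 of 16 cases, among them male CRE- replicate 3 (0.504).

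Signs turned for values near 0 and for some farther from it. Among the latter were Slc7a2 in females, at 0.46 in the main fit, and the sex difference of Slc7a5, at 0.47. With each mouse left out, the ranges in log2 were -0.010 to 0.30 for Slc38a2 and -0.31 to 0.11 for Slc16a10 in males, and -0.29 to 0.094 for Slc16a10, -0.017 to 0.76 for Slc7a2 and -0.035 to 0.65 for Slc25a47 in females. For the sex difference they were -0.024 to 0.55 for Slc38a2, -0.083 to 0.47 for Slc38a3, -0.074 to 0.30 for Slc38a4, -0.11 to 0.78 for Slc7a5, -0.17 to 0.26 for Slc16a10, -0.28 to 0.19 for Slc6a9 and -0.42 to 0.28 for Slc25a47. Without both those mice, Slc16a10 in females was 0.044, and the sex difference was 0.058 for Slc6a9 and 0.18 for Slc25a47. The sex difference of Slc16a10 was -0.024 with the replicate block and -0.078 by limma-voom, where that of Slc25a47 was 0.11. In females Slc25a47 was 0.047 with the replicate block and 0.49 by limma-voom, and Slc7a2 was 0.31 by limma-voom. For Slc43a1 the sex difference was 0.11 to 1.24 with each mouse left out. The sex difference could not be fitted with each sex alone. Slc43a1 and Slc7a5, with means of 1.73 to 11.2 CPM, have the fewest reads of the list.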
